A study of Mus musculus with 4 samples.

Results

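The proteasome is the barrel-shaped protease that degrades ubiquitin-tagged proteins in the cytosol and nucleus. Its core particle is a stack of alpha rings, which gate the entrance, and beta rings, which hold the proteolytic sites. The regulatory particle caps the core: its base of ATPases unfolds substrates and feeds them in, and its lid removes their ubiquitin. PA28 is an alternative cap that binds no ubiquitin. In B cells and other lymphocytes the catalytic beta subunits are partly replaced by the interferon-inducible immunoproteasome subunits, which alter the peptides produced for MHC class I.

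The genes described here are the constitutive proteasome subunits, 34 genes chosen by name: 14 of the core particle, 17 of the regulatory particle and 3 of PA28. All probe sets annotated to exactly 1 of these symbols were taken, which gave 71 probe sets for 33 genes among the 18194 genes measured. Psme2 is not described, because its probe set is annotated to several genes. Every one of the 33 genes lay above the detection level on all 4 arrays, so the filter on low values left all 33 in the test.

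The study compared 4 populations of B cells from C57BL6/J wild type mice, with 1 Affymetrix array each. Germinal centre (GC) B cells, which divide and mutate their antibody genes in a follicle, were sorted as B220+PNA+Fas+ cells from peripheral lymph nodes (pLN) and Peyer's patches (PP), which are lymphoid tissue of the gut wall. Only the pLN mice were immunised (TNP-KLH, given in incomplete Freund's adjuvant); the PP mice were untreated. Naive B cells were sorted as B220+PNA-Fas- cells from the same pair of sources. Cells of 3 to 5 mice were pooled for each RNA sample, so the variation between mice cannot be seen, and the naive pLN cells also came from immunised mice.

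Signals were scaled so that each array had a trimmed mean of 500. Between 8313 genes (naive PP) and 10764 genes (GC pLN) lay above the detection level, which is the 90th percentile of genes of other tissues on that array. The sort markers followed the labels: Fas read 4266 in GC pLN and 515 in naive pLN, and 4980 in GC PP and 403 in naive PP, and the 4 measured B cell markers were above the level on every array. Among markers of other cells, the 5 plasma cell genes summed to 16073 in GC pLN and 9306 in naive pLN, and to 22284 in GC PP and 7864 in naive PP, with 4 or 5 of them above the level on each array. Of these sums, Jchain alone gave 9253 in GC pLN and 1707 in naive pLN, and 10618 in GC PP and 827 in naive PP. In pLN, Sdc1 and Irf4 were lower in GC cells, and Prdm1 and Xbp1 higher. In PP all 5 were higher in GC cells. Sdc1 and Prdm1 were 4.06-fold and 8.51-fold higher in GC PP than in GC pLN. The 6 measured T cell markers, of which 1 to 6 were above the level, summed to 486 to 1031. The 6 myeloid markers, of which 2 to 4 were above it, summed to 3211 in GC pLN and 986 in naive pLN, and to 4312 in GC PP and 906 in naive PP. Of these sums, Apoe alone gave 2528 in GC pLN and 304 in naive pLN, and 3561 in GC PP and 492 in naive PP. Lyz2 and Cd68 were also higher in GC cells of both tissues, while Adgre1 and Csf1r were lower. Itgam was under the level on every array. The 5 gut epithelium markers, of which 1 to 4 were above it, summed to 474 to 2397, and the 4 measured stromal and red cell markers, of which at most 1 was above it, to 51.1 to 376. Their part in the values below was not tested. RNA quality moved with cell type: the 3'/5' signal ratio of the Gapdh control was 1.48 in GC pLN and 18.7 in naive pLN, and 1.67 in GC PP and 96.4 in naive PP. The 18 spike-in controls had geometric means of 4855 in GC pLN and 8569 in naive pLN, and of 4925 in GC PP and 17090 in naive PP. Fewer cells of a type and less RNA per cell cannot be told apart in such bulk samples. Cell type and RNA quality cannot be told apart either, in any of the GC-naive folds, calls and medians below.

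By the brightest probe set of each gene, Psmb5 had the highest GC-naive fold among members with a promoter sequence at hand. Psmc1 and Psmd12 had the lowest folds among them. The promoters of these 3 members are shown. Each is a window of 300 bases, 250 before and 50 after the annotated start, from RefSeq on GRCm38.p6, read 5′ to 3′ on the strand of the gene. Capitals mark matches on either strand to TGANNNNGC or to the CCAAT box. TGANNNNGC is a loose form of the core of the antioxidant response element, through which the transcription factor NRF1 acts on proteasome genes.

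Psmb5, chr14:54617946-54618245, minus strand: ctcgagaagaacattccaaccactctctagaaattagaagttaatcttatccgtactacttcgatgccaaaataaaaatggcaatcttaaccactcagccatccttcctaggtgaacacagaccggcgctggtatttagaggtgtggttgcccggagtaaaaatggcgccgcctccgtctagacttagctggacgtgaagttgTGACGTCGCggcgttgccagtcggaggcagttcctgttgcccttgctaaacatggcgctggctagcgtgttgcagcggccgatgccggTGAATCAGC

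Psmc1, chr12:100109952-100110251, plus strand: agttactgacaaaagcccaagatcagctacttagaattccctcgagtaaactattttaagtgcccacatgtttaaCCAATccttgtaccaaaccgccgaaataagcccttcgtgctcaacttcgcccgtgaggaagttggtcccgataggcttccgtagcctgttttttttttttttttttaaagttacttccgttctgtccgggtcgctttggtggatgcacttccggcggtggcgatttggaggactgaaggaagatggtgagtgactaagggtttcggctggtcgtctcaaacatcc

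Psmd12, chr11:107479278-107479577, plus strand: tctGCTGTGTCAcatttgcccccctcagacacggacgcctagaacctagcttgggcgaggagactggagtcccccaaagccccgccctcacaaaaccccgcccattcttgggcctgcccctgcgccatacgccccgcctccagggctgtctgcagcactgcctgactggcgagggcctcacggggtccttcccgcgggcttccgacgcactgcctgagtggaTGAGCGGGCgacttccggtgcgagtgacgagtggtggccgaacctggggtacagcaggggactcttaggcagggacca

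The Psmb5 and Psmd12 windows each hold 2 matches to TGANNNNGC, and that of Psmc1 holds 1 CCAAT box. Over the 27 measured members with a promoter sequence, TGANNNNGC was found in 8 of 11 core and 5 of 14 regulatory particle promoters, against 41.4% of all 27025 promoters of the table. The CCAAT box was found in 6 of 11 core and 4 of 14 regulatory particle promoters, against 37.9% of all. A match of letters is a description and not a binding site.

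The first comparison asked how proteasome transcripts differ between GC and naive B cells over both tissues. The core and the regulatory particle lay on different sides of 0. Core genes had a median GC-naive log2 fold of 0.89, while regulatory particle genes had a median of -0.54, beside a median of -0.01 over all 10056 genes tested. The gap between core and regulatory medians was 1.43 over both tissues, 1.08 within pLN and 1.33 within PP. It has no test, and it describes these probe sets and arrays, whose RNA quality differed with cell type.

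The calls were higher in the core and of both directions in the regulatory particle. With limma, tissue as a block and Benjamini-Hochberg adjustment over all genes tested, 6 of the 14 core genes were called higher in GC cells and none lower, 2 of the 17 regulatory particle genes were called higher and 2 lower, and neither measured PA28 gene was called. Of all genes tested, 23.5% were called higher and 22.4% lower, so the total of 8 higher among the 33 members is near that share, and 2 lower is under it. In all, 10 members were called in either direction, beside 45.9% of genes tested, and 23 were not called. Log2 folds were above 0 in both tissues for 14 members, 10 of them core, beside 41.9% of genes tested. The members were bright genes: 28 of the 33 lay in the brightest of 4 equal groups of tested genes, where 8.87% were called higher and 34.6% lower, and where the median log2 fold was -0.64.

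**Figure D1:**
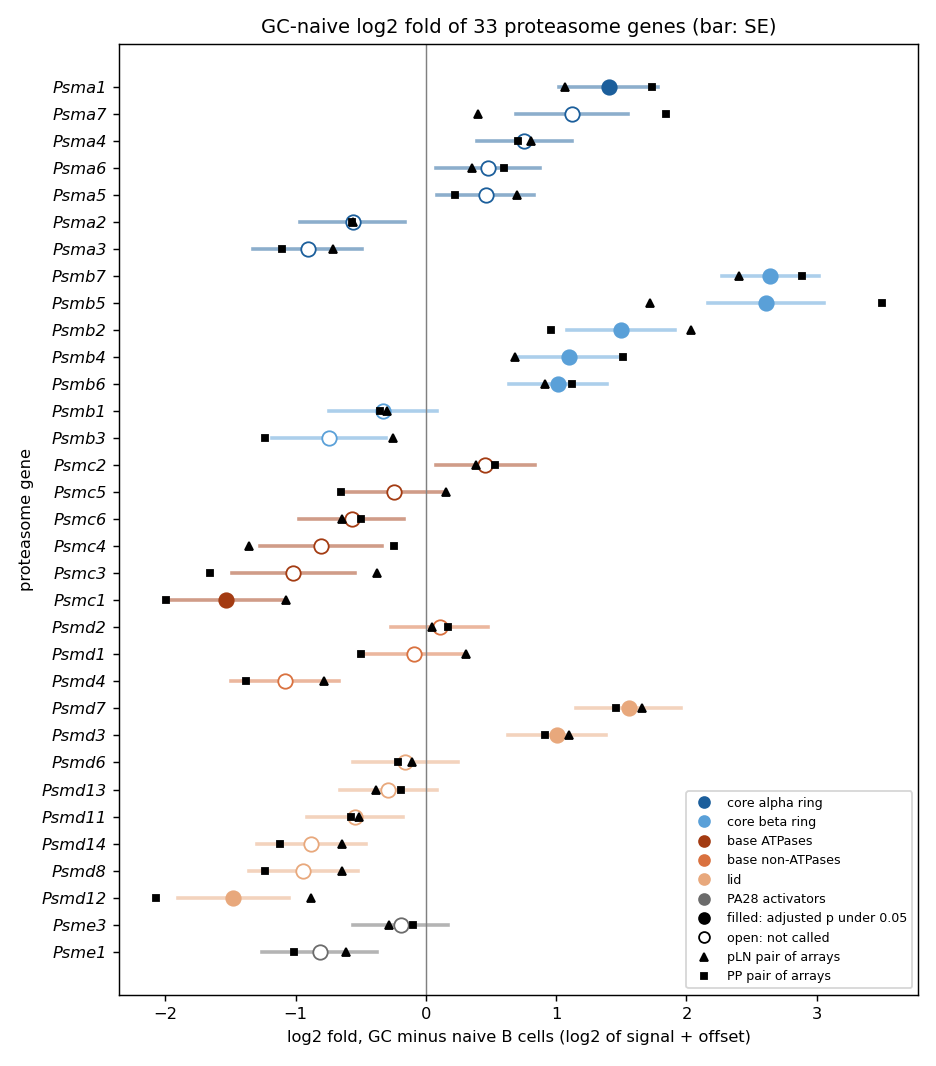
Each row is a proteasome gene and the x axis is the log2 fold, GC minus naive B cells. Large circles are the mean over both tissues with a bar of 1 SE, filled where the limma adjusted p is under 0.05; triangles are the pLN pair and squares the PP pair of arrays, and core genes lie mostly right of 0 (median 0.89) and base and lid genes mostly left (median -0.54).

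All 3 proteolytic subunits rose. By the brightest probe set of each gene, the largest increases of any member were those of Psmb7 and Psmb5. Some dimmer probe sets of other members, such as those of Psma5 and Psmb3 described below, had higher folds. Psmb7, which carries the trypsin-like site, read 6067 in GC pLN and 1136 in naive pLN, and 5529 in GC PP and 737 in naive PP. Both GC signals stood far above both naive ones, and the log2 fold was 2.64 ± 0.37 (limma's moderated SE, as for every ± below, adjusted p = 0.000346), a 6.33-fold ratio of signals. Psmb5, which carries the chymotrypsin-like site targeted by bortezomib, read 3958 in GC pLN and 1192 in naive pLN, and 3337 in GC PP and 282 in naive PP. Its groups did not overlap either, and the log2 fold of 2.61 ± 0.45 (limma adjusted p = 0.00099) was made of a 3.32-fold ratio in pLN and an 11.8-fold ratio in PP. Psmb6, with the caspase-like site, read 5129 in GC pLN and 2719 in naive pLN, and 5115 in GC PP and 2349 in naive PP. Its GC signals were nearly equal in the 2 tissues, and its log2 fold was 1.02 ± 0.38 (limma adjusted p = 0.0453), close to the threshold.

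Psmb7 and Psmb5 were called higher under all 18 alternative settings in which each gene was tested. Psmb6 was called under 13 of the 18. Psmb5, Psmb6 and Psmb7 have 1 probe set each, so no other probe set of the same gene could be set beside these values. Psmb4, described next, was also called under 13.

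The structural beta subunits differed among themselves. Psmb2, a beta ring subunit without a proteolytic site, read 1515 in GC pLN and 360 in naive pLN, and 1199 in GC PP and 608 in naive PP. Both GC arrays were higher, with log2 folds of 2.03 in pLN and 0.96 in PP and a mean ratio of signals of 2.88-fold (limma adjusted p = 0.0124). Psmb4, also without a site, read 6867 in GC pLN and 4261 in naive pLN, and 6813 in GC PP and 2384 in naive PP, a log2 fold of 1.10 ± 0.41 (limma adjusted p = 0.0444). By their brightest probe sets, Psmb1 and Psmb3, the other members of the ring without a site, were not called. Their values were below 0, at -0.33 ± 0.41 and -0.74 ± 0.44. Another probe set of Psmb1 read 1006 in GC pLN and 2111 in naive pLN, and 859 in GC PP and 1929 in naive PP. Its log2 fold was -1.11, called lower with every probe set tested on its own (limma adjusted p = 0.0264). The dimmest of Psmb1 had -0.23 and was not called.

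For Psmb3 the probe sets pointed in opposite directions. Its brightest probe set read 5324 in GC pLN and 6328 in naive pLN, and 5409 in GC PP and 12723 in naive PP. The other probe set read 2424 in GC pLN and 200 in naive pLN, and 1884 in GC PP and 14.1 in naive PP, where the naive signal lay under the detection level. With that naive signal at the level, the PP ratio of this probe set is at least 12.6-fold. With the mean of its probe sets the log2 fold of Psmb3 became 2.03. The direction for this gene is therefore not settled by these arrays.

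In the alpha ring, whose subunits form the gate, 5 of 7 genes had a GC-naive value above 0 in both tissues and 1 was called. Psma1 read 4291 in GC pLN and 2036 in naive pLN, and 3459 in GC PP and 1030 in naive PP, and rose by 1.40 ± 0.38 (log2, limma adjusted p = 0.0111). The other probe set of Psma1 above the level on all arrays had a log2 fold of 0.75, and its 2 dimmest were under the level on both naive arrays. Psma7 read 4985 in GC pLN and 3783 in naive pLN, and 4886 in GC PP and 1352 in naive PP, so its difference was small in pLN and large in PP. At 1.12 ± 0.43 it just missed the threshold (limma adjusted p = 0.0511). Psma4, Psma5 and Psma6 had log2 folds of 0.76, 0.46 and 0.48 and were not called. Another probe set of Psma5 read 4158 in GC pLN and 1261 in naive pLN, and 4571 in GC PP and 347 in naive PP, a log2 fold of 2.69. Psma2 and Psma3 lay below 0, at -0.56 and -0.91, and were not called. Psma3 read 5021 in GC pLN and 8220 in naive pLN, and 5203 in GC PP and 11209 in naive PP, but its dimmer probe set had a log2 fold of 0.73.

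**Figure D2:**
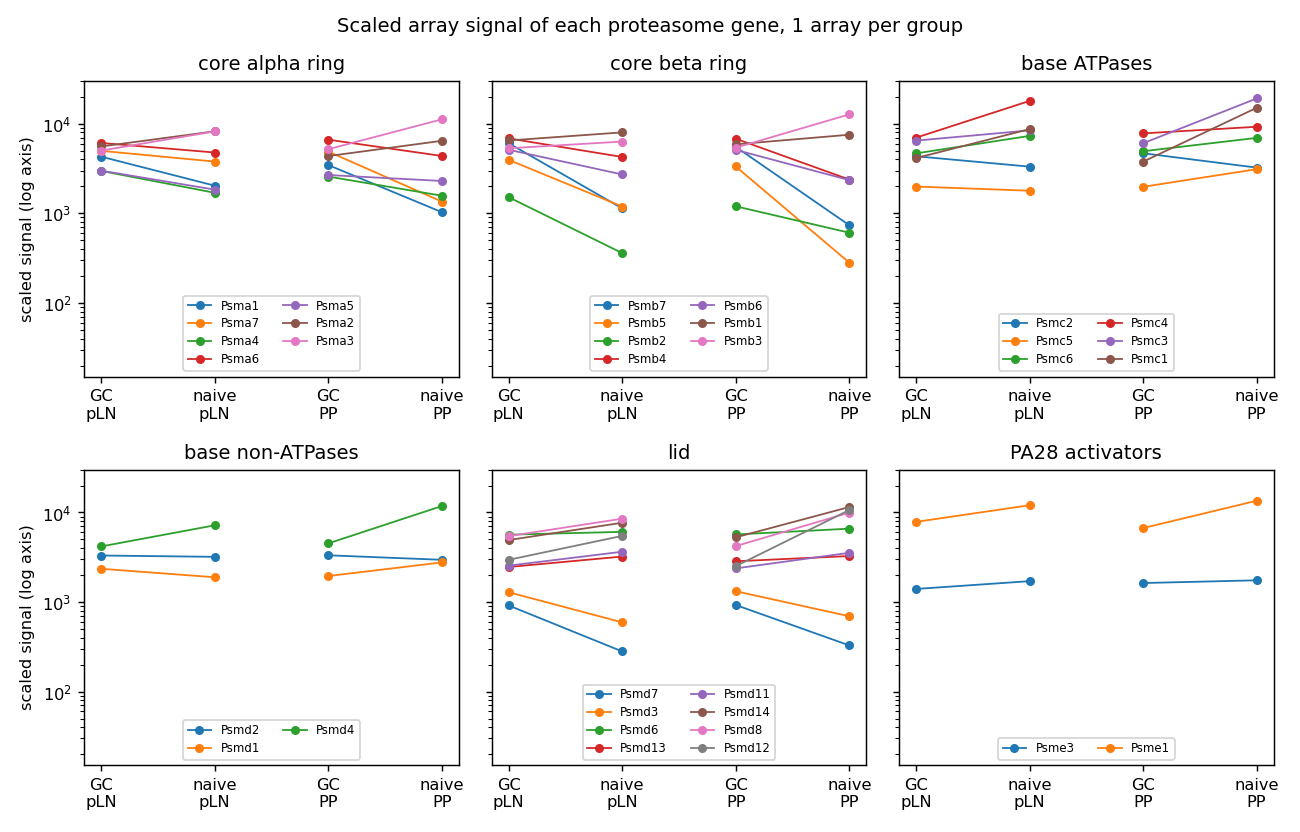
Scaled signal of the brightest probe set of each gene (log axis) on the 4 arrays, GC beside naive in each tissue, with a panel for each subcomplex. GC signals of a gene are close between pLN and PP, while naive signals spread more, as for Psmb5 at 1192 in pLN and 282 in PP.

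Among the ATPases of the base, 5 of 6 had a mean value below 0 and 1 was called. Psmc1, an ATPase whose tail docks into the alpha ring, read 4141 in GC pLN and 8714 in naive pLN, and 3770 in GC PP and 15073 in naive PP. Its naive signals were higher in both tissues, and it fell by 1.53 ± 0.43 on the log2 scale (limma adjusted p = 0.0138). Psmc3, which docks in the same way, read 6486 in GC pLN and 8432 in naive pLN, and 6056 in GC PP and 19153 in naive PP, a value of -1.02 ± 0.47 that was not called. Psmc4, the remaining ATPase with such a tail, read 6992 in GC pLN and 17981 in naive pLN, and 7810 in GC PP and 9259 in naive PP. Its GC signals lay under both naive signals, at -0.80 ± 0.47, and it was not called. The other probe set of Psmc4 had the same sign, at -1.06. Psmc2 was the only ATPase with a mean above 0, at 0.46, and was not called.

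Psmc5 and Psmc6 were less settled. Psmc5 read 1991 in GC pLN and 1789 in naive pLN, and 1978 in GC PP and 3111 in naive PP, so its sign differed between tissues. The brightest probe set of Psmc6 had a log2 fold of -0.57. Another read 625 in GC pLN and 152 in naive pLN, and 872 in GC PP and 42.6 in naive PP, where it was under the level and the ratio is at least 5.84-fold. The remaining probe set was under the level on both naive arrays. The value of 1.48 for Psmc6 with the mean of its probe sets includes these signals.

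The 3 other base subunits were not called. Psmd4, a receptor for ubiquitin chains, read 4177 in GC pLN and 7191 in naive pLN, and 4518 in GC PP and 11795 in naive PP. Both naive signals were higher, and at -1.08 ± 0.42 it just missed the threshold (limma adjusted p = 0.0513). One of its dimmer probe sets read 2468 in GC pLN and 695 in naive pLN, and 2050 in GC PP and 286 in naive PP, in the other direction, and the remaining one had a log2 fold of -0.98. Psmd1 and Psmd2, the large scaffold subunits that bind substrate shuttles and associated enzymes, had means of -0.09 and 0.11. Psmd1 read 2351 in GC pLN and 1891 in naive pLN, and 1952 in GC PP and 2768 in naive PP, again with a different sign in each tissue. Among all genes tested, 15.3% had log2 folds of opposite sign in the 2 tissues, and Psmc5 and Psmd1 were the 2 of 33 members that did.

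The lid held called genes of both directions. Psmd7, the partner of the lid's deubiquitinating enzyme, read 916 in GC pLN and 281 in naive pLN, and 927 in GC PP and 328 in naive PP, with a log2 fold of 1.56 ± 0.40 (limma adjusted p = 0.00903). Its 2 dimmer probe sets had 0.08 and -0.98, so its direction depends on the probe set. It was not called when represented by the one brightest in naive cells, nor with the mean of its probe sets, at 0.22. Psmd3, a scaffold protein of the lid, read 1287 in GC pLN and 593 in naive pLN, and 1321 in GC PP and 695 in naive PP, a log2 fold of 1.01 ± 0.38 (limma adjusted p = 0.0464). The call of Psmd3 held under 11 of 18 alternatives, and was lost on the deposited scale, with quantile normalization, cyclic loess, no filter and no trend, and without either GC array. Psmd12, another scaffold protein, read 2960 in GC pLN and 5475 in naive pLN, and 2515 in GC PP and 10639 in naive PP. It fell by 1.48 ± 0.42 on the log2 scale (limma adjusted p = 0.0151), and its groups did not overlap.

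Of the remaining lid genes, none was called. By the brightest probe set of each, all 5 lay below 0 in both tissues, as did 4306 of all 10056 genes tested. Psmd14, the deubiquitinating enzyme itself, read 4921 in GC pLN and 7681 in naive pLN, and 5274 in GC PP and 11496 in naive PP. Both naive signals were the higher ones. Psmd8 had a value of -0.94, Psmd11 of -0.54, Psmd13 of -0.29 and Psmd6 of -0.16. The 5 tested probe sets of Psmd11 ranged from -0.54 to 2.12, and the 3 of Psmd13 from -0.29 to 0.34. The direction of both genes thus depends on the probe set.

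Neither measured PA28 gene was called. Psme1, a subunit of the interferon-inducible PA28, read 7850 in GC pLN and 12039 in naive pLN, and 6693 in GC PP and 13514 in naive PP, a log2 fold of -0.81 ± 0.44 (limma adjusted p = 0.15). Psme3, the nuclear form, read 1400 in GC pLN and 1710 in naive pLN, and 1630 in GC PP and 1748 in naive PP. Its difference of -0.19 ± 0.36 was within its error. A second, almost equally bright probe set of Psme3 read 2212 in GC pLN and 1478 in naive pLN, and 1855 in GC PP and 1111 in naive PP, a log2 fold of 0.65, so its sign depends on the probe set.

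An array was then left out in turn, with no tissue block. The lone array of a cell type is then assumed to vary like the other cell type, whose 2 arrays alone give the spread. Without GC pLN, 2 members were called higher and 0 lower, beside 11.8% and 8.18% of genes tested, and without GC PP also 2 and 0, beside 10% and 7.37%. Without naive pLN, 12 were higher and 12 lower, beside 33.1% and 30.4%, and without naive PP 11 and 12, beside 23.3% and 27.3%. Counts of members and of all genes thus both changed with the pair of arrays that gave the spread. The 2 members still called without either GC array were Psmb5 and Psmb7. The core to regulatory gap was 1.36 without GC pLN, 1.43 without GC PP, 1.49 without naive pLN and 1.08 without naive PP. Beyond the left-out GC arrays, the call of Psmc1 was also lost after cyclic loess and on the spike-in scale, and that of Psmd12 on the spike-in scale.

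Probe sets of the same gene were then compared. The probe sets used for Psmb4, Psma6, Psmc2 and Psmd11 are of a type that can share probes with other transcripts, so their signals are less certain. Of the 71 probe sets, 63 passed the filter, and 17 genes had more than 1 of them. In 9 of the 17 all probe sets had the same sign and in 8 they did not. Of the 30 probe sets that were not the brightest of their gene, 21 had a higher GC-naive log2 fold than the brightest, which is 70% of them, beside 70.1% over all genes tested. Of the 30, 10 were under the level on a naive array, and of the 20 above it on both, 11 had the higher fold. A low naive signal itself raises the GC-naive fold, so leaving such probe sets out lowers this count by construction. No share over all genes was taken in the same way, so no conclusion is drawn from it. With every probe set tested on its own, 13 of 28 core probe sets were called higher and 1 lower, and 7 of 32 regulatory particle probe sets were called higher and 4 lower. Of all probe sets tested, 32% were called higher and 17.4% lower. The medians were 0.90 for core and -0.16 for regulatory particle probe sets.

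**Figure D3:**
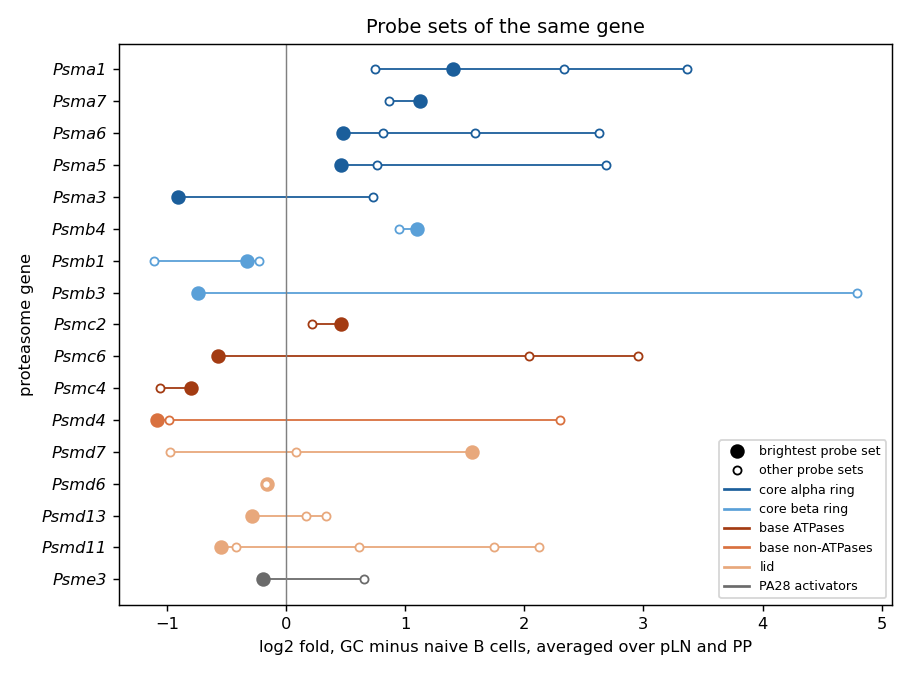
The 17 proteasome genes with more than 1 tested probe set, with the log2 fold, GC minus naive B cells, averaged over both tissues, on the x axis. Large filled circles are the brightest probe set of each gene and open circles the others, and the 2 probe sets of Psmb3 lie at -0.74 and 4.80. Of the 30 open circles, 10 were under the detection level on a naive array, that of Psmb3 among them, so their distance from 0 is uncertain.

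The scale of the arrays moved both particles together. Scaled to the spike-ins, core genes had a median of 2.18 and regulatory particle genes of 0.76, while all genes tested had a median of 1.25. On that scale 12 members were called higher and 0 lower, beside 31.6% and 1.45% of genes tested. With quantile normalization the medians were 1.06 and -0.17, and after cyclic loess 1.11 and -0.01. The core median was above the regulatory median under each of the 19 alternatives, by 1.07 to 1.49. Not all of these could change the gap. Settings that alter only the filter, the level, the block or the trend leave the folds of these members as they are, with a gap of 1.43. Rescaling whole arrays shifts both medians almost equally, and the gap was also 1.43 on the deposited and spike-in scales. The value of either median thus depends on the scaling. The core median stayed above 0 under each of the 19 alternatives, from 0.65 to 2.18. The spike-in setting turned the regulatory median above 0, and on that scale the median of all genes tested was above 0 too.

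**Figure D4:**
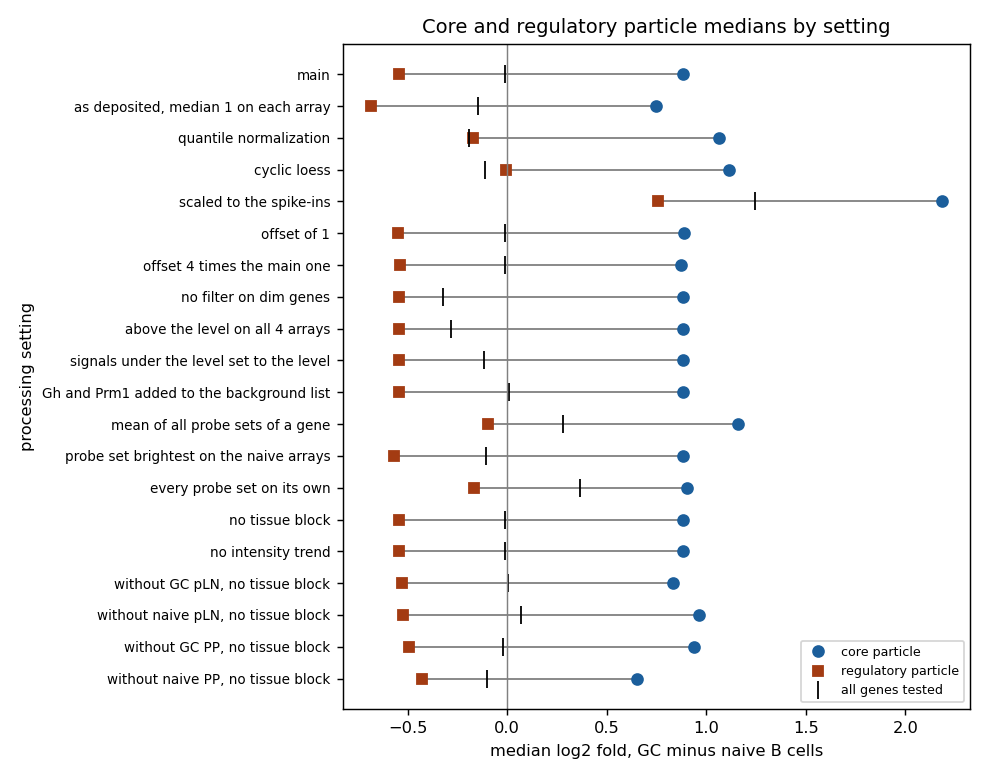
Median log2 fold, GC minus naive B cells, of core genes (circles), regulatory particle genes (squares) and all genes tested (ticks), with 1 row for each processing setting. Core lies right of regulatory in every row, at 0.89 and -0.54 in the top row and 2.18 and 0.76 when scaled to the spike-ins. Rows that alter only the filter, the level, the block or the trend repeat the core and regulatory values of the top row.

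Within each tissue GC and naive cells were 1 array each, so differences were counted at 2-fold or more without a test. In pLN, 6 of 33 members were 2-fold higher in GC cells and 2 lower, where 21.7% of all genes above the level were higher and 24.4% lower. The 6 were 4 core genes and 2 of the lid. In PP, 7 were higher, 6 of them core, and 9 were lower, 6 of them in the regulatory particle, where 32.4% of all genes were higher and 27.5% lower. The log2 folds of the members had an SD of 0.93 in pLN and 1.33 in PP, beside 1.39 and 1.83 over all genes tested. The Gapdh 3'/5' ratio of the naive array was also farther from its GC array in PP, and its part in this was not tested.

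PP and pLN were then compared within a cell type. The mice of the pLN were immunised and those of the PP were not, so tissue and immunisation cannot be told apart. In GC cells none of 33 members was 2-fold higher or lower in PP, where 5.25% of all genes were higher and 2.72% lower. Few genes of any kind differed by 2-fold here, so 0 of the 33 members is near those shares. By the brightest probe set of each gene, the PP over pLN ratios of the members ran from 0.774 for Psmd8 to 1.16 for Psme3. In log2, the values next to these extremes were 0.21 for Psmd13, 0.16 for Psmc4 and 0.12 for Psma6 at the upper end. At the lower end they were -0.35 for Psma2, -0.33 for Psmb2 and -0.31 for Psma1. Some dimmer probe sets differed from these values. One of Psmd13 had a ratio of 1.34, the second of Psme3 had 0.839, and one of Psma1 had a log2 value of 0.38. The medians over core and regulatory particle genes were -0.14 and 0.01.

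In naive cells the ratios of the same genes spread from 0.236 for Psmb5 to 2.27 for Psmc3. Psmc3 and Psmb3 were 2-fold higher in PP, at log2 differences of 1.18 and 1.01, and Psmb5 and Psma7 were 2-fold lower, at -2.03 and -1.48. Of all genes above the level, 8.9% were 2-fold higher and 17.3% lower. The other probe set of Psmb3 had -2.93, with naive PP under the level. Next in order were Psmd12 at 0.96 and Psmc5 at 0.79 on the upper side, and Psma1 at -0.97 and Psmc4 at -0.96 on the lower. The other probe set of Psmc4 went the other way, at 1.04, with 8953 in naive PP and 4359 in naive pLN, so the direction for Psmc4 and Psmb3 depends on the probe set. The wider spread in naive cells went with the unequal 3'/5' ratios of the naive arrays, 96.4 in PP and 18.7 in pLN, whose part in it was not tested.

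Genes tied to the proteasome but not constitutive subunits gave a context. The list held 26 genes, of which 23 were measured and 21 tested, with 5 called higher in GC cells, 4 lower and 12 not called. These shares, 23.8% and 19%, are near those of all genes tested, 23.5% and 22.4%. The immunoproteasome subunits that replace the catalytic ones went in different directions. Psmb8, which takes the place of Psmb5, read 4244 in GC pLN and 9231 in naive pLN, and 3708 in GC PP and 22389 in naive PP, and fell by 1.85 ± 0.47 on the log2 scale (limma adjusted p = 0.00837). Psmb9, in place of Psmb6, read 4414 in GC pLN and 1694 in naive pLN, and 4072 in GC PP and 1670 in naive PP, and rose by 1.33 ± 0.37 (limma adjusted p = 0.0127). Psmb10, in place of Psmb7, read 5753 in GC pLN and 8680 in naive pLN, and 4303 in GC PP and 10999 in naive PP, and its difference of -0.97 ± 0.43 was not called.

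Set beside their counterparts, the GC-naive log2 fold of Psmb5 exceeded that of Psmb8 by 4.47, and that of Psmb7 exceeded that of Psmb10 by 3.61. For Psmb6 and Psmb9 the difference was -0.31. These differences of folds were 2.84, 2.99 and -0.46 in pLN and 6.09, 4.24 and -0.16 in PP, and were not tested. Each of these immunoproteasome genes rests on 1 tested probe set.

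Nfe2l1 and Pomp had the highest fitted folds of the other related genes. Nfe2l1 encodes NRF1, a transcription factor that acts on proteasome genes when proteolysis falls short. It read 788 in GC pLN and 308 in naive pLN, and 716 in GC PP and 55.7 in naive PP, where the naive signal was under the detection level of 149. Its log2 fold was 2.35 ± 0.52 (limma adjusted p = 0.00424), and with that signal at the level the PP ratio is at least 4.80-fold, so its order relative to Pomp is not known. Pomp, the maturation factor that helps the beta rings assemble, read 6130 in GC pLN and 1967 in naive pLN, and 4958 in GC PP and 782 in naive PP. It rose by 2.14 ± 0.40 (limma adjusted p = 0.00154).

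The lowest were Psmf1, which encodes the proteasome inhibitor PI31, and Ecpas, an adaptor that clamps the core to its cap. Psmf1 read 527 in GC pLN and 3138 in naive pLN, and 457 in GC PP and 1641 in naive PP, and fell by 2.18 ± 0.39 on the log2 scale (limma adjusted p = 0.0012). All 4 of its tested probe sets lay below 0, from -2.48 to -0.16. Ecpas fell by 1.24 ± 0.37 (limma adjusted p = 0.0185), but its 4 tested probe sets had folds of both signs. Of the 8 assembly factors, 1 was called higher (Pomp), 1 was called lower (Psmg2, a chaperone of the alpha ring) and 6 were not called. The 3 tested probe sets of Psmg2 ranged from -1.02 to 2.10, so its direction depends on the probe set. The deubiquitinating enzymes of the regulatory particle, Uchl5 and Usp14, rose by 1.54 and 1.48 (log2, limma adjusted p = 0.00591 and 0.0145).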

How the data were processed

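The deposited table holds the authors' probe set signal intensities of 4 single-colour Affymetrix arrays on a linear scale, with a median of 1 on each array. GCOS is named in the submitters' processing notes; the sources used here do not give its algorithm or scaling target. No column was left unused (0). The values are not counts, and no probe-level files were used here.

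All arrays were brought to a common trimmed mean of 500, with 2% trimmed at each end. The median signal of 64 probe sets of genes of other tissues, 13.9, was added before log2, and their 90th percentile on an array was its detection level (32.5 and 68.6 for GC cells of pLN and PP, 72.2 and 149 for naive cells). Log2 folds understate the change of dim genes. Of 45101 probe sets, 34958 had 1 symbol, 932 several and 9211 none, and the brightest probe set by mean log2 signal stood for each of 18194 genes.

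The comparison of GC with naive cells used limma 3.58.1 in R 4.3.3, with a variance trend on intensity, tissue as block, and a threshold of 0.05 after Benjamini-Hochberg adjustment. It covered the 10056 genes that passed the level on the pLN and the PP array of either cell type. The error rests on 1 residual and 10.6 prior degrees of freedom, and measures only the disagreement of the tissues. It does not hold a difference of RNA quality that both naive arrays share. The number of arrays limits the precision. The script was tested on simulated data. Spike-in controls are 18 bacterial and phage probe sets. The members, lists and tests were chosen with earlier results of these data known. Named were the 6 highest and 6 lowest folds, the catalytic and PA28 genes, members with signs that differed between tissues or probe sets, the 4 highest and lowest PP-pLN folds, and the immunoproteasome genes with the 2 highest and 2 lowest other related genes; further members were added for completeness. Alternatives covered scaling, offset, filter, background list, probe sets, the block and trend, the fold threshold, and leaving out single arrays.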

Additional observations from a re-analysis of the deposited data

Results flagged for a closer look

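For Psmc5 and Psmd1 the GC array was above the naive array in pLN and below it in PP. Psmc5 had GC-naive log2 folds of 0.154 in pLN and -0.650 in PP. Psmd1 had 0.312 in pLN and -0.501 in PP. Each value is 1 array against 1 array, and the difference between the tissues was not tested.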

How the results depend on the processing

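The main counts were 8 members called higher and 2 lower in GC cells, with a median log2 fold of -0.19 and a core to regulatory gap of 1.43. Called lower were 7 members on the deposited scale, 1 after cyclic loess, 0 on the spike-in scale, 5 with the mean of all probe sets and 4 without the tissue block; called higher were 5 with no filter on dim genes and 5 without the intensity trend. Testing each probe set gave 20 higher and 5 lower probe sets. The median was -0.33 on the deposited scale and turned positive with quantile normalization (0.27), cyclic loess (0.14), the spike-ins (1.10), the mean of all probe sets (0.22) and single probe sets (0.46). The gap was 1.24 with quantile normalization, 1.12 after cyclic loess and 1.07 over single probe sets. Without each array in turn and without the block, where the other cell type alone gives the spread, 2 to 12 were higher and 0 to 12 lower, the median ran from -0.28 to -0.10 and the gap from 1.08 to 1.49.

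At 2-fold, main counts were 6 higher and 2 lower in GC cells of pLN, 7 and 9 in PP, and, for PP over pLN, 2 and 2 in naive cells and 0 and 0 in GC cells. In GC against naive cells of pLN, 0 were lower with quantile normalization, cyclic loess, the spike-ins and the mean of probe sets. In PP, 2 were lower with quantile normalization and 2 with cyclic loess. On the spike-in scale 14 were higher in pLN, and 24 were higher and 0 lower in PP. Between naive cells, higher in PP were 0 on the deposited, quantile and spike-in scales and 1 with cyclic loess or the mean of probe sets, and lower were 5 on the deposited and 15 on the spike-in scale. Over single probe sets, 20 were higher and 4 lower in pLN, 21 higher in PP, and 4 higher and 8 lower between naive cells. At 1.5-fold, 10 were higher and 9 lower in pLN, 11 higher in PP, and 7 higher and 6 lower between naive cells. Psmb3 turned to 2.03 and Psmc6 to 1.48 with the mean of probe sets, and Psmd7 to -0.98 when taken from the probe set that naive cells had brightest. Among results for single members, 499 kept their side of the threshold, 61 gained a call and 31 lost one. Apart from the scalings and the probe sets used, the cause of these shifts was not tested. No paired analysis by replicate number was possible because the labels give no replicate numbers; tissue was the block.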
